A study of Mus musculus with 20 samples.

Results

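The AP-1 family genes Fos, Fosb, Fosl2, Jun, Junb, Jund, Atf3, Batf and Maff were followed in RNA sequencing of mouse bone marrow-derived macrophages. They were found by gene symbol, 9 genes of 17787 in the deposited expression table. Marrow cells of male wild-type C57BL/6J mice were grown into macrophages over 7 days with L929 supernatant and transfected for 48 h with 50 nM of a single control siRNA product or of a single product against Brg1. Brg1, encoded by Smarca4, is the motor subunit of BAF chromatin remodelling complexes. During the last 6 h the cells received vehicle (ethanol and D-PBS), lipopolysaccharide (LPS, a bacterial cell wall component, 100 ng/ml) with ethanol, or LPS with 1 µM of the synthetic glucocorticoid dexamethasone (Dex+LPS). The groups were control siRNA with vehicle (3 libraries), LPS (3) and Dex+LPS (4), and Brg1 siRNA with vehicle (3), LPS (3) and Dex+LPS (4). All groups were transfected, and no group received Dex without LPS. The design text speaks of 3 replicates, while the labels list 4 for both Dex+LPS groups. The labels do not say whether replicates were separate animals or separate cultures, so a p-value speaks only for the spread among these 20 libraries, which may be technical.

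AP-1 is a dimer of basic leucine zipper proteins. Fos proteins bind DNA only as partners of Jun proteins, Jun proteins also pair with one another, and partners such as Atf3, Batf and the small Maf proteins change which sites the dimer binds and whether it activates or represses. Fos and Jun are immediate early genes that rise and fall quickly after a stimulus, Toll-like receptors reach AP-1 through MAP kinases, and ligand-bound glucocorticoid receptor is known to restrain AP-1 activity in macrophages.

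The stretches just upstream of 4 start sites are shown because these genes moved in opposite directions with LPS: Fos and Jun fell, and Junb and Maff rose. Each run is the 250 bases before a RefSeq transcript start (GRCm38.p6), 5′ to 3′ on the gene's strand. Capitals mark matches on either strand to the searched motifs, and none of the 4 windows overlaps an exon of the GENCODE annotation. Fos is at chr12:85473640-85473889 on the plus strand, Jun at chr4:95052223-95052472 and Junb at chr8:84978749-84978998 on the minus strand, and the second of 3 Maff starts at chr15:79347270-79347519 on the plus strand.

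A capital run of TGACG is a CRE core, and the other capital runs are named after the sequences.
Fos: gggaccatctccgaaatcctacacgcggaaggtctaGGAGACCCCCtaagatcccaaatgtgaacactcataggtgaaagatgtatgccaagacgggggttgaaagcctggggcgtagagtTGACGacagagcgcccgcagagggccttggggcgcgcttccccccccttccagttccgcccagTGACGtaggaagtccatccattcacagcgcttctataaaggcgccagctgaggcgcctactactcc
Jun: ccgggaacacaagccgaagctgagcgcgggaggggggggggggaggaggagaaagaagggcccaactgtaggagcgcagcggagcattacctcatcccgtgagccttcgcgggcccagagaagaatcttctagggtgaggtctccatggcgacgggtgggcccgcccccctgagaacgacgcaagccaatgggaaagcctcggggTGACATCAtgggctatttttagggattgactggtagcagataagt
Junb: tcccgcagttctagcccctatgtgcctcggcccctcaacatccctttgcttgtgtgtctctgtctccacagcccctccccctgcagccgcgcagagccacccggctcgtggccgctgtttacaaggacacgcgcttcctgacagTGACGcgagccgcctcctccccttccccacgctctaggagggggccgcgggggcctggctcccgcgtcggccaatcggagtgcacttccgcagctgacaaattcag
Maff: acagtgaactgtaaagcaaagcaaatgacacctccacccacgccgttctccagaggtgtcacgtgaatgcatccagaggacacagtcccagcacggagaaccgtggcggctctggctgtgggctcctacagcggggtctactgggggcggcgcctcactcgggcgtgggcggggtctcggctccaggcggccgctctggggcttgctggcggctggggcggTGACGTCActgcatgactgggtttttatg

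The Maff window held a full cAMP response element (CRE, TGACGTCA) 29 to 22 bases before the start, a motif found in 1.55% of the 32851 RefSeq windows of the same length. The Jun window held the related TGACATCA 45 to 38 bases before the start (2.93% of windows). The Fos window held CRE cores (TGACG, the first bases of the CRE, 17.8% of windows, each full CRE counting as such a match too) 129 to 125 and 66 to 62 bases before the start, and a match to the kappaB motif (5.93%) 214 to 205 bases before it. The Junb window held a single CRE core 106 to 102 bases before the start. Among the Maff windows, only the one shown held a full CRE. The first Maff window (chr15:79346371-79346620) held no searched motif, and the third held a CRE core, TGACATCA and a kappaB match. Over the 11 windows of the 9 genes, the CRE core was in 7 windows of 6 genes, TGACATCA in 2 of 2 genes, the kappaB motif in 4 of 4 genes and the full CRE in 1. The AP-1 site TGANTCA (6.75% of all windows), the CArG box (1.47%) and the glucocorticoid response element (0.0609%) were in 0 of the 11, which says only that these letters are not in these stretches. A match is a description of the sequence.

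Values are normalized counts, gene counts divided by a size factor for each library. Multiplied back to whole reads, they summed to 13694895 to 18707709 reads per library. These sums hold only reads assigned to the listed genes, not all reads sequenced. Smarca4 was lower in every Brg1 siRNA library than in every control library of the same treatment, with log2 differences of -2.12, -2.28 and -2.10 in vehicle, LPS and Dex+LPS. Its level also differed between treatments. LPS against vehicle changed Smarca4 by 0.90 with control siRNA and 0.74 with Brg1 siRNA, and Dex+LPS against LPS by -0.55 and -0.38. The part of this in the knockdown effects below was not tested. The summed level of 7 macrophage markers was 220739 to 266553 in control libraries and 279443 to 357354 in Brg1 siRNA libraries, with no marker at 0 in any group. Of 6 T and NK cell markers 4 were in the table, with Cd8a or Cd3g at 0 throughout every group but Brg1 siRNA with vehicle, and the sum was 21.4 to 92 in control libraries against 66.5 to 182 with Brg1 siRNA. For neutrophils (7 of 8 markers in the table, with Ly6g, Elane or Mpo at 0 throughout each group) the sums in vehicle, LPS and Dex+LPS were 50.2 to 89.1, 209.7 to 241 and 315 to 441 with control siRNA and 79.8 to 89.5, 234 to 264 and 457 to 533 with Brg1 siRNA. For mast cells and basophils (3 of 5 markers in the table, with Cpa3 at 0 throughout all groups but control Dex+LPS) they were 97.1 to 147, 68.5 to 87.9 and 0 to 8.55 against 112 to 127, 139 to 167 and 11.4 to 54.6, with no overlap between siRNAs in LPS or Dex+LPS. The part of these shifts in the results below was not tested.

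Of the 20 libraries, 4 carry a library code from a higher number series than the other 16: replicate 3 of control siRNA with LPS, replicate 4 of control siRNA with Dex+LPS, replicate 2 of Brg1 siRNA with LPS and replicate 4 of Brg1 siRNA with Dex+LPS. The labels do not say what the code marks, and the vehicle groups hold only lower codes. These 4 libraries stood apart for the Jun genes, with values given under each gene and in a paragraph of their own.

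**Figure D1:**
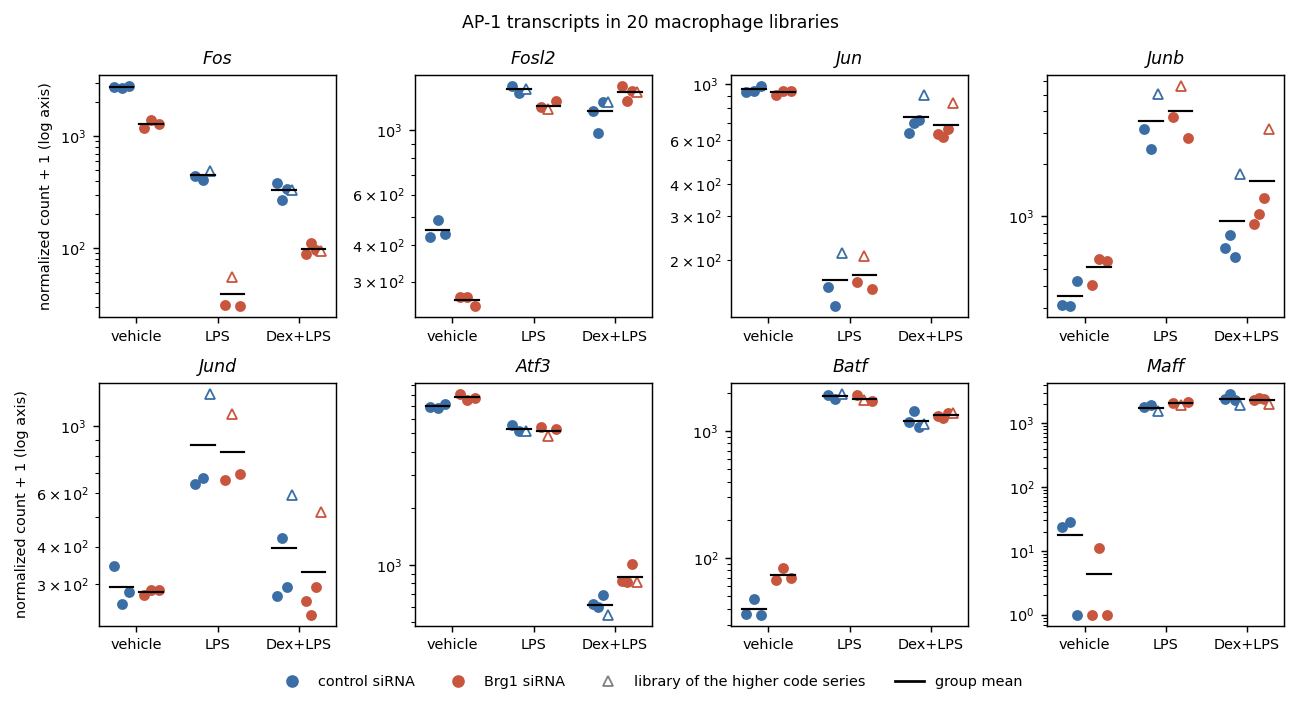
Normalized counts of the 8 tested AP-1 genes in each library (log axis), by siRNA and treatment; each point is 1 library. Fos separates all 6 groups, while Junb and Jund spread widely within the LPS and Dex+LPS groups.

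The test covered the 12061 genes that reached 10 normalized counts in 3 libraries or more. This filter passed 8 of the 9 AP-1 genes and left out Fosb. A gene is called where its limma adjusted p over all genes tested is under 0.05. With control siRNA, LPS raised 5 of the 8 tested genes (Fosl2, Junb, Jund, Batf and Maff) and lowered 3 (Fos, Jun and Atf3), where 73.0% of all genes were called, 36.0% higher and 37.0% lower. With Brg1 siRNA LPS raised and lowered those same genes, where 72.8% of all genes were called, 35.4% higher and 37.4% lower. Dex+LPS against LPS called Jun higher and 6 genes lower with control siRNA (all but Maff), where 48.7% of all genes were called, 23.4% higher and 25.2% lower. With Brg1 siRNA this comparison called Fos and Jun higher and Atf3, Junb, Jund and Batf lower, where 44.4% of all genes were called, 21.3% higher and 23.0% lower. Both responses use the LPS libraries of their siRNA, so they are not independent.

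Brg1 siRNA changed fewer of the 8. In vehicle, Batf was higher and Fos and Fosl2 lower, where 20.1% of all genes were called, 9.39% higher and 10.8% lower. In LPS, Fos was lower and 0 were higher, where 33.1% of all genes were called, 17.3% higher and 15.8% lower. At an unadjusted limma p under 0.05, 2 were lower and 0 higher, and edgeR and DESeq2 each called 1 lower and 0 higher. In Dex+LPS, Atf3 and Fosl2 were higher and Fos lower, where 34.3% of all genes were called, 19.0% higher and 15.3% lower. The knockdown effect was larger or smaller in LPS than in vehicle for Fos, Fosl2 and Batf, where 11.4% of all genes were called, 6.39% higher and 5.05% lower. Between Dex+LPS and LPS it differed for Fos, Atf3 and Fosl2, all with a higher value in Dex+LPS, where 3.97% of all genes were called, 2.75% higher and 1.22% lower. Both of these differences contain the knockdown effect in LPS, with opposite sign, so they are not independent. With 8 genes tested, the 3, 1 and 3 knockdown calls set beside these shares of all genes are no result about the family, and the values of single genes carry the description. The median log2 difference over the 8 genes was -0.04 against 0.01 over all genes tested in vehicle, -0.04 against 0.01 in LPS and 0.06 against 0.01 in Dex+LPS.

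The scale moved these directions in part. Dividing by plain library totals in place of the size factors shifted the median gene by -0.57 and -0.67 (log2) in the LPS responses with control and Brg1 siRNA, by 0.29 and 0.32 in the Dex responses, and by -0.13 and -0.10 for the knockdown in LPS and Dex+LPS. The share of calls that were higher went from 49.3% to 26.2% and 48.7% to 23.2% in the LPS responses, from 48.2% to 76.2% and 48.1% to 81.4% in the Dex responses, from 52.3% to 31.4% and 55.4% to 36.7% for the knockdown in LPS and Dex+LPS, and from 55.9% to 38.1% for the difference between LPS and vehicle. Differences are therefore relative to the size-factor scale. With plain totals LPS called 5 of the 8 AP-1 genes higher and 3 lower under either siRNA, and with Dex 1 was higher and 4 lower with control siRNA and 3 were higher and 3 lower with Brg1 siRNA. Where a gene's direction or call turned on it, the value follows below.

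**Figure D2:**
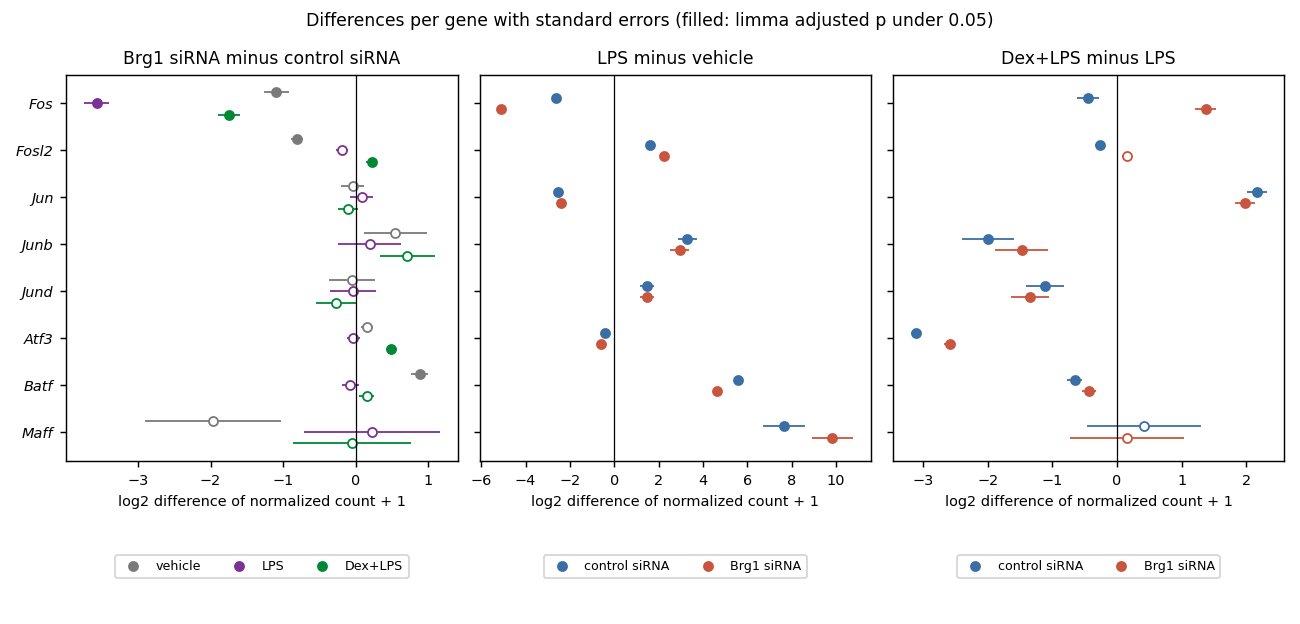
Log2 differences of normalized count + 1 with standard errors for the 8 tested genes: Brg1 siRNA minus control siRNA by treatment (left), LPS minus vehicle (middle) and Dex+LPS minus LPS (right) by siRNA. Filled points are called. Fos lies farthest to the left for the knockdown in LPS, and its Dex+LPS difference has opposite signs with control and Brg1 siRNA.

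Fos (ENSMUSG00000021250, chromosome 12, 85473890 to 85477273, plus strand, GRCm38) encodes the archetypal Fos protein, which needs a Jun partner. Its normalized counts in vehicle were 2725, 2664 and 2830.2 for control siRNA and 1188, 1381 and 1293 for Brg1 siRNA. In the LPS groups these were 442, 407 and 489.9 for control and 29.9, 54.8 and 29.6 for Brg1 siRNA, and Dex+LPS 379, 268, 334 and 331 and 86.9, 109, 96.2 and 93.3. No 2 of the 6 groups overlapped, and every Brg1 siRNA library lay below every control library of its treatment. The order of the group means (± SD, n = 3 or 4) was control vehicle (2739.8 ± 84), Brg1 vehicle (1287 ± 96.6), control LPS (446 ± 41.5), control Dex+LPS (328 ± 45.4), Brg1 Dex+LPS (96.4 ± 9.4) and Brg1 LPS (38.1 ± 14.5). In such bulk samples, fewer cells with the transcript and less transcript per cell cannot be told apart.

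Brg1 siRNA changed Fos by -1.09 in vehicle (SE 0.18, limma adjusted p = 0.00019), to 0.469 times the control level on the log2(count + 1) scale. In LPS it fell by 3.57 (SE 0.18, limma adjusted p = 1.18e-10), to 0.0841 times. In Dex+LPS it fell by 1.75 (SE 0.15, limma adjusted p = 8.34e-08). The knockdown effect thus differed by -2.48 between LPS and vehicle (SE 0.25, limma adjusted p = 2.95e-06) and by 1.82 between Dex+LPS and LPS (SE 0.23, limma adjusted p = 0.000179). Both differences share the LPS libraries, which enter them with opposite sign. The LPS and Dex differences per siRNA, given next, restate the same contrasts and are no separate evidence. LPS changed Fos by -2.62 with control siRNA (SE 0.18, limma adjusted p = 2.11e-10) and by -5.10 with Brg1 siRNA (SE 0.18, limma adjusted p = 1.09e-14). The Dex difference had opposite signs: Fos fell by 0.45 with control siRNA (SE 0.17, limma adjusted p = 0.0315) and rose by 1.37 with Brg1 siRNA (SE 0.17, limma adjusted p = 2.11e-06).

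The fall of Fos with Dex and control siRNA was the least firm of these. It was -0.15 (adjusted p = 0.475) with plain library totals. It lost its call without LPS replicate 1 (-0.46, adjusted p = 0.0679), LPS replicate 3 (-0.38, adjusted p = 0.117) or Dex+LPS replicate 2 (-0.36, adjusted p = 0.0916). The rise with Brg1 siRNA started from 24, 44 and 26 reads in the LPS libraries, and the highest of these, replicate 2, has a higher library code. Among lower-code libraries alone the rise was 1.68 on the log2 scale of group means (3 against 2 libraries), and among higher-code libraries 0.76 (1 against 1).

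Fosb (ENSMUSG00000003545, chromosome 7, 19302696 to 19310051, minus strand), a close relative of Fos that is itself an immediate early gene, was barely detected. Its reads were 0, 3 and 0 in the control vehicle libraries and 0, 7 and 9 in the Brg1 siRNA vehicle libraries. All 14 libraries with LPS or Dex+LPS held 0 reads. A count of 0 over a group allows up to 3 reads, which is 0.0623 CPM (reads scaled to the library total) for control siRNA with LPS, 0.0612 for Brg1 siRNA with LPS, 0.0476 for control siRNA with Dex+LPS and 0.0505 for Brg1 siRNA with Dex+LPS. These limits cover counting error only, and no difference between groups was tested.

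Fosl2 (ENSMUSG00000029135, chromosome 5, 32135801 to 32157842, plus strand) encodes Fra-2, a Fos family protein without the strong transactivation domain of Fos. Vehicle libraries had normalized counts of 429, 489 and 439 for control siRNA and 264, 265 and 246 for Brg1 siRNA, and these groups did not overlap. LPS gave 1426, 1347 and 1384 for control and 1199, 1181 and 1259 for Brg1 siRNA, and Dex+LPS 1167, 979, 1250.4 and 1252 and 1419.6, 1264, 1366 and 1350.0. The Brg1 siRNA libraries thus lay below the controls in vehicle and LPS and above them in Dex+LPS. The order of means was control LPS, Brg1 Dex+LPS, Brg1 LPS, control Dex+LPS, control vehicle and Brg1 vehicle; control LPS overlapped Brg1 Dex+LPS, and Brg1 LPS overlapped control Dex+LPS.

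Fosl2 fell by 0.80 with Brg1 siRNA in vehicle (SE 0.083, limma adjusted p = 1.45e-06). In LPS the difference was -0.19 (SE 0.083, limma adjusted p = 0.0854), not called; with plain library totals it was -0.33 (adjusted p = 0.00591), and a fit of those groups alone called it (adjusted p = 0.0272). LPS raised Fosl2 by 1.62 with control siRNA (SE 0.083, limma adjusted p = 3.66e-12) and by 2.23 with Brg1 siRNA (SE 0.083, limma adjusted p = 2.96e-14), and the knockdown effect differed by 0.61 between LPS and vehicle (SE 0.12, limma adjusted p = 0.00174). The differences that involve Dex were small and turned on the settings. Fosl2 was 0.22 higher with Brg1 siRNA in Dex+LPS (SE 0.071, limma adjusted p = 0.0227). That call was lost without control Dex+LPS replicate 2 (0.14, adjusted p = 0.0677), Brg1 siRNA Dex+LPS replicate 1 (0.20, adjusted p = 0.0665) or replicate 3 (0.22, adjusted p = 0.0512), and with plain library totals (0.12, adjusted p = 0.233). It was also lost with edgeR (0.18, adjusted p = 0.0506) and in a fit of those groups alone (0.22, adjusted p = 0.106).

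With control siRNA, Dex lowered Fosl2 by 0.26 (SE 0.077, limma adjusted p = 0.00956), but with plain library totals the difference was 0.04 (adjusted p = 0.716), of opposite sign. A fit of those groups alone also lost the call (-0.26, adjusted p = 0.0701). With Brg1 siRNA it was 0.15 (SE 0.077, limma adjusted p = 0.119), not called, and 0.49 (adjusted p = 6.25e-05) with plain totals. The knockdown effect on Fosl2 was higher in Dex+LPS than in LPS by 0.41 (SE 0.11, limma adjusted p = 0.0412). This call held on both scales but was lost in 13 of 24 alternatives. Leaving out a single library ended it in 10 of 14 cases: each of the 3 control LPS libraries, each of the 3 Brg1 siRNA LPS libraries, control Dex+LPS replicate 1, and Brg1 siRNA Dex+LPS replicates 1, 3 and 4. The difference for Fosl2 then ran from 0.33 to 0.45 over all such exclusions.

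Jun (ENSMUSG00000052684, chromosome 4, 95049034 to 95052222, minus strand) encodes c-Jun, the Jun protein with the strongest transactivation activity and the partner of Fos. Vehicle libraries had normalized counts of 932, 934 and 985 for control siRNA and 899, 936 and 939 for Brg1 siRNA. In LPS the values were 156, 131 and 212 for control and 163, 207 and 152 for Brg1 siRNA, and Dex+LPS 636, 702, 717 and 901 and 631, 618, 665 and 841. LPS libraries were low with either siRNA and Dex+LPS libraries reached back towards vehicle, while control and Brg1 siRNA overlapped in each treatment. The replicates with higher library codes were the highest of their group in all 4 groups that hold one.

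LPS changed Jun by -2.54 with control siRNA (SE 0.16, limma adjusted p = 8.46e-11) and by -2.41 with Brg1 siRNA (SE 0.16, limma adjusted p = 1.74e-10). Dex raised it by 2.16 (SE 0.15, limma adjusted p = 1.21e-09) and 1.98 (SE 0.15, limma adjusted p = 5.78e-09) on top of LPS. Jun is the only tested gene of the 9 that was lower with LPS and higher with Dex+LPS under control siRNA. The knockdown differences were -0.04 in vehicle (SE 0.16, limma adjusted p = 0.912), 0.08 in LPS (SE 0.16, limma adjusted p = 0.729) and -0.10 in Dex+LPS (SE 0.14, limma adjusted p = 0.618), none called. Jun shares 6.39% of its 31-base words with the antisense gene Junos, which was at 0 to 10.9 normalized counts.

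Junb (ENSMUSG00000052837, chromosome 8, 84974484 to 84978718, minus strand) encodes a Jun protein that activates more weakly than c-Jun and can oppose it. Vehicle libraries had normalized counts of 311, 306 and 427 for control siRNA and 403, 566 and 556 for Brg1 siRNA. LPS libraries had 3176, 2423 and 5029 for control and 3694, 5633 and 2807 for Brg1 siRNA, and Dex+LPS 655, 779, 581 and 1745 and 907, 1028, 1269 and 3175. The groups overlapped between siRNAs in each treatment. The highest value of each LPS and Dex+LPS group was its library with a higher code, 1.73 to 2.97 times the mean of the lower-code libraries of the group.

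LPS raised Junb by 3.29 with control siRNA (SE 0.43, limma adjusted p = 1.99e-06) and 2.95 with Brg1 siRNA (SE 0.43, limma adjusted p = 7.77e-06). Dex changed it by -1.99 (SE 0.41, limma adjusted p = 0.000534) and -1.48 (SE 0.41, limma adjusted p = 0.00651), and with Brg1 siRNA the LPS and Dex+LPS libraries overlapped through the higher-code Dex+LPS library. The knockdown difference was 0.55 in vehicle (SE 0.43, limma adjusted p = 0.445) and 0.20 in LPS (SE 0.43, limma adjusted p = 0.77). In Dex+LPS it was 0.71 (SE 0.38, limma adjusted p = 0.157), not called. There the call depended on the library codes: with a term for them Junb was higher by 0.71 (adjusted p = 0.00372), and without the 4 libraries by 0.66 (adjusted p = 0.0143). Without control Dex+LPS replicate 4 alone it was 1.06 (adjusted p = 0.0286), and without Brg1 siRNA Dex+LPS replicate 4 alone it was 0.32 (adjusted p = 0.493).

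Within the lower-code libraries, Junb was 0.67 higher in the mean of the 3 Brg1 siRNA libraries than of the 3 controls with Dex+LPS, and the 2 higher-code libraries differed by 0.86. In vehicle, the same exclusion of the 4 libraries gave 0.55 (adjusted p = 0.0492). None of them is a vehicle library, so the difference did not change. Only the SE, which pools the spread of all groups, went from 0.43 to 0.19. Junb shares 6.51% of its 31-base words with Prdx2 on the opposite strand, which was at 1189.7 to 2321 normalized counts, and whether counting used strand is not given in the sources used here.

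Jund (ENSMUSG00000071076, chromosome 8, 70698949 to 70700616, plus strand), a Jun gene often described as constitutively expressed, had normalized counts of 343, 259 and 281 with vehicle and control siRNA and 275, 288 and 287 with Brg1 siRNA. In LPS they stood at 641, 676 and 1274 for control and 663, 1099 and 696 for Brg1 siRNA, and Dex+LPS 275, 425, 293 and 591 and 264, 237, 293 and 521. It was higher in all LPS libraries than in all vehicle libraries, and the higher-code libraries were again the highest of their groups, at 1.62 to 1.97 times the mean of the others. LPS raised Jund by 1.49 (SE 0.32, limma adjusted p = 0.000399) with control siRNA and 1.49 (SE 0.32, limma adjusted p = 0.000386) with Brg1 siRNA. Dex changed it by -1.12 (SE 0.30, limma adjusted p = 0.00449) and -1.35 (SE 0.30, limma adjusted p = 0.00117). The knockdown differences were -0.04, -0.04 and -0.27 in vehicle, LPS and Dex+LPS, with limma adjusted p from 0.489 to 0.955, none called. The Jund values are uncertain in that 50.1% of its 31-base words also occur in Gm11175 on the opposite strand, which was at 0 to 7.48 normalized counts.

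Across the 8 tested genes, a term for the library codes called Junb (1.18 higher in the higher-code libraries, SE 0.147, limma adjusted p = 0.000105), Jund (0.87, SE 0.099, limma adjusted p = 6.13e-05) and Jun (0.44, SE 0.052, limma adjusted p = 7.82e-05). That is 3 of 8 higher, where 18.3% of all genes were called, 9.26% higher and 9.04% lower. The coefficients of the other 5 genes were not called. In the 4 groups that hold such a library, Jun, Junb and Jund were above all lower-code libraries every time, and Maff was below them every time (0.775 to 0.915 times their mean). No vehicle library has a higher code, so the codes bear on the LPS responses. With a term for them, the LPS rise of Junb was lower, at 2.901 with control siRNA and 2.553 with Brg1 siRNA. That of Jund was also lower, at 1.195 and 1.198. The fall of Jun was larger, at -2.683 and -2.559. Without the 4 libraries the values were 3.008 and 2.677 for Junb, 1.169 and 1.259 for Jund, and -2.727 and -2.544 for Jun. All 8 genes stayed called for LPS in these fits. What the codes mark was not tested.

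**Figure D3:**
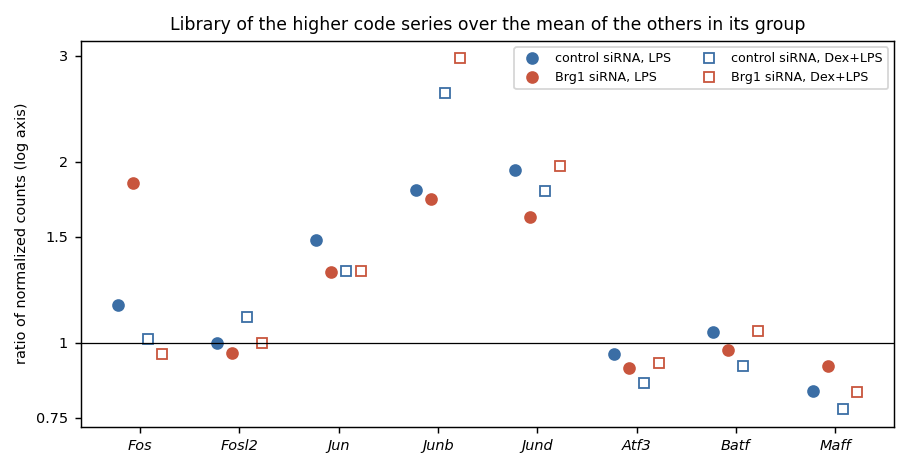
Ratio of the library with a higher code to the mean of the lower-code libraries of its group, for each tested AP-1 gene in the 4 groups that hold such a library. Junb (1.73 to 2.97), Jund (1.62 to 1.97) and Jun (1.31 to 1.48) lie above 1 in all 4 groups.

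Atf3 (ENSMUSG00000026628, chromosome 1, 191170296 to 191218039, minus strand) encodes a stress-induced factor known to dampen Toll-like receptor responses in macrophages. Vehicle libraries had normalized counts of 6922, 6813 and 7168 for control siRNA and 8069, 7519 and 7717 for Brg1 siRNA. Under LPS the counts were 5535, 5177 and 5131 for control and 5421, 4848 and 5252 for Brg1 siRNA, and Dex+LPS 618, 596, 689 and 543 and 816, 811, 1007 and 812. Levels were thus highest in vehicle and lowest in Dex+LPS, with Brg1 siRNA above control in vehicle and Dex+LPS and overlapping it in LPS. Dex changed Atf3 by -3.11 with control siRNA (SE 0.08, limma adjusted p = 3e-15), to 0.116 times, and by -2.59 with Brg1 siRNA (SE 0.08, limma adjusted p = 4.06e-14), to 0.166 times. LPS changed it by -0.40 (SE 0.086, limma adjusted p = 0.000406) and -0.59 (SE 0.086, limma adjusted p = 6.71e-06).

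Brg1 siRNA raised Atf3 in Dex+LPS by 0.49 (SE 0.074, limma adjusted p = 4.76e-05). In vehicle the difference was 0.16 (SE 0.086, limma adjusted p = 0.233), not called, although no library of one group reached the other. A fit of those groups alone called it (adjusted p = 0.0293). In LPS it was -0.03 (SE 0.086, limma adjusted p = 0.826). The knockdown effect differed by 0.52 between Dex+LPS and LPS (SE 0.11, limma adjusted p = 0.0122). That call for Atf3 was lost without the 4 higher-code libraries (0.47, adjusted p = 0.0674) and in a fit of the 4 groups alone (0.52, adjusted p = 0.0507). It held in 22 of 24 alternatives, among them the fit with a term for the library codes (0.52, adjusted p = 0.00326).

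Batf (ENSMUSG00000034266, chromosome 12, 85686669 to 85709087, plus strand) encodes a factor without a transactivation domain that pairs with Jun proteins and joins IRF factors on composite sites. Its start lies 209.395 kb from the end of Fos, with Jdp2 as the only protein-coding gene between them. Vehicle libraries had normalized counts of 35.2, 46.4 and 35 for control siRNA and 66.2, 82.9 and 68.2 for Brg1 siRNA. After LPS the values were 1926, 1798 and 1943 for control and 1909, 1761 and 1717 for Brg1 siRNA, and Dex+LPS 1183, 1439.5, 1067 and 1127 and 1319, 1254, 1386 and 1379. Vehicle libraries were all low, and Brg1 siRNA lay above control there without overlap.

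LPS raised Batf by 5.58 with control siRNA (SE 0.12, limma adjusted p = 7.6e-18), 47.8 times, and by 4.62 with Brg1 siRNA (SE 0.12, limma adjusted p = 1.15e-16), 24.6 times. Brg1 siRNA raised Batf in vehicle by 0.89 (SE 0.12, limma adjusted p = 2.43e-05). The difference was -0.07 in LPS (SE 0.12, limma adjusted p = 0.676) and 0.16 in Dex+LPS (SE 0.10, limma adjusted p = 0.257), and the knockdown effect differed by -0.96 between LPS and vehicle (SE 0.17, limma adjusted p = 0.000749). Dex changed Batf by -0.66 (SE 0.11, limma adjusted p = 7.4e-05) with control siRNA and -0.43 (SE 0.11, limma adjusted p = 0.00393) with Brg1 siRNA. With plain library totals the latter was -0.10 (adjusted p = 0.487).

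Maff (ENSMUSG00000042622, chromosome 15, 79346621 to 79359076, plus strand) encodes a small Maf protein, which lacks a transactivation domain. Vehicle libraries had normalized counts of 22.6, 27.3 and 0 for control siRNA and 0, 10.2 and 0 for Brg1 siRNA, from 27, 33 and 0 and 0, 13 and 0 reads. LPS libraries held 1825, 1898 and 1546 for control and 2062, 1925 and 2145 for Brg1 siRNA, and Dex+LPS 2364, 2839.5, 2319 and 1944 and 2328, 2484, 2359 and 1976. Maff was thus near the detection limit in vehicle, with 1 control and 2 Brg1 siRNA libraries listed at 0, and far above that in every other library.

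LPS raised Maff by 7.65 with control siRNA (SE 0.94, limma adjusted p = 8.18e-07) and 9.84 with Brg1 siRNA (SE 0.94, limma adjusted p = 2.89e-08). These sizes rest on vehicle libraries at or near 0 and depend on the added count of 1. The vehicle spread also gives Maff an SE of 0.94 in LPS, where all 3 Brg1 siRNA libraries were above all 3 controls by 0.22 (adjusted p = 0.886). In vehicle the knockdown difference was -1.97 (SE 0.94, limma adjusted p = 0.165). For Maff 1 library decided that call: it was -3.53 (adjusted p = 0.00104) without control vehicle replicate 3 and -3.13 (adjusted p = 0.0206) without Brg1 siRNA vehicle replicate 2. The Maff knockdown effect was 2.19 higher in LPS than in vehicle (SE 1.33, limma adjusted p = 0.343), not called, and 3.76 (adjusted p = 0.0101) without control vehicle replicate 3. The pooled spread also enters the Dex differences of 0.42 (SE 0.88, limma adjusted p = 0.725) and 0.16 (SE 0.88, limma adjusted p = 0.905). With control siRNA the Maff libraries of Dex+LPS were all above those of LPS, and a fit of those groups alone called the rise (adjusted p = 0.0363). The knockdown difference in Dex+LPS was -0.04 (SE 0.81, limma adjusted p = 0.979).

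To set different genes roughly side by side, levels were divided by the kilobases of all annotated exons of a gene. Which transcripts were expressed was not measured, so the order of the genes is approximate. On this scale Atf3 had the highest mean of the 9 genes in vehicle, 3235 normalized counts per kb with control siRNA and 3607 with Brg1 siRNA. Fos followed at 1165 and 547, and Jun at 298 and 290.0. In LPS, Atf3 (2452 and 2402) was followed by Junb (1539.6 and 1758), Batf (1344 and 1277) and Maff (677 and 788), while Jun was at 52.1 and 54.6. In LPS the libraries of Junb and Batf overlapped, and with Brg1 siRNA the highest Junb library (2448) lay above the lowest of Atf3 (2250.5). In Dex+LPS, Maff (912 and 882) and Batf (857 and 949) had the highest means and overlapped, ahead of Junb (409 and 693) and Atf3 (284 and 399.8). The higher-code library of Junb lay above the lowest Maff library with control siRNA, and with Brg1 siRNA, at 1379.6, it lay above every library of Maff (up to 958) and Batf (up to 986). Fos stood second of the 9 in vehicle and eighth with Brg1 siRNA in LPS (16.2) and Dex+LPS (41), with Fosb at 0 below it.

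**Figure D4:**
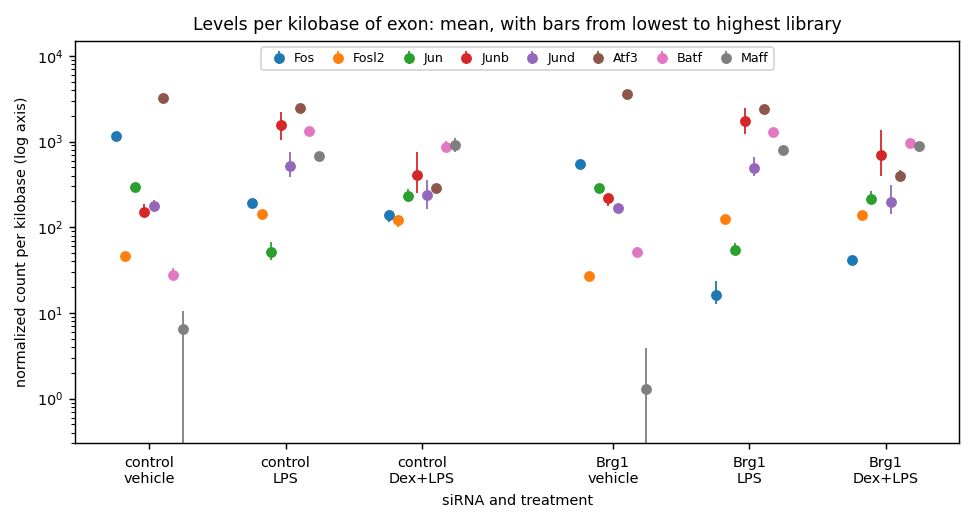
Mean normalized count per kilobase of exon (log axis) for the 8 tested genes in the 6 groups, with bars from the lowest to the highest library; bars that reach a library at 0 (Maff in vehicle) end at the lower edge. By mean, Atf3 is highest in vehicle and LPS and Maff and Batf in Dex+LPS; the highest Junb library overlaps Atf3 in LPS and lies above Maff and Batf in Dex+LPS with Brg1 siRNA.

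As a description over the 20 libraries, which share 3 treatments and the library codes, the patterns of Fosl2, Batf and Maff ran together (Pearson r of log2 values 0.95 for Fosl2 and Maff, 0.94 for Batf and Maff, 0.93 for Batf and Fosl2). Junb and Jund had r = 0.88, and Fos and Batf -0.83. Fos and Jun had r = 0.54, and Atf3 was near 0 with Junb (-0.04). Among the 12061 genes tested, those most like Fos were Samd1 (0.974), B4galnt1 (0.971) and Smagp (0.971), and those most like Batf were Ccl5 (0.997), Tbc1d1 (0.996) and Traf1 (0.995). For Atf3 they were Asph (0.987), Maf (0.986) and Il10rb (0.982), for Jun Slc43a2 (0.985), Agap1 (0.985) and Setd7 (0.975) and for Junb Scap (0.981), Eml2 (0.979) and Dpp9 (0.977). For Fosl2 they were Cav1 (0.983), Cobll1 (0.983) and Gm12840 (0.982), for Maff Col27a1 (0.973), Bcl2a1a (0.972) and Trmt5 (0.97) and for Jund Ece2 (0.932), Cog2 (0.923) and Wsb2 (0.921).

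Of 10 further AP-1 and Maf family genes, all tested, LPS with control siRNA raised 6 and lowered 2 (median 0.84 against -0.04 over all genes tested, 73.0% of all genes called; 4 and 3 with plain library totals). Jdp2, a repressive AP-1 partner encoded between Fos and Batf, had normalized counts of 91.2, 72.9 and 97 with vehicle and 1512, 1339.7 and 1463 with LPS, and rose by 4.04 (SE 0.15, limma adjusted p = 4.7e-14). With Brg1 siRNA, Jdp2 was lower in all 3 treatments, with log2 differences of -0.59, -1.23 and -0.76 in vehicle, LPS and Dex+LPS, and its libraries did not overlap those of the controls. Batf2 was higher in all 3, by 0.61, 0.79 and 1.12. In all, the knockdown called 1 of the 10 higher and 2 lower in vehicle, 2 and 1 in LPS, and 3 and 1 in Dex+LPS (2 and 2 there with plain library totals), where 20.1%, 33.1% and 34.3% of all genes were called. Besides these, Fosl1 fell in vehicle (limma adjusted p = 0.0112), where its counts were 3.35, 4.14 and 6.12 against 1.59, 0 and 1.71, and Maf rose by 0.44 in LPS and 0.61 in Dex+LPS.

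With Dex, 0 of these 10 were higher and 6 lower under control siRNA (median -0.63 against -0.01 over all genes tested, 48.7% of all genes called; 3 and 5 with plain library totals), with 0 higher at an unadjusted limma p under 0.05 and by edgeR or DESeq2. The largest falls were those of Batf3 (-2.54, from 21.4, 24.3 and 26.7 to 5.44, 4.27, 3.05 and 1.53 normalized counts) and Maf (-2.09). With Brg1 siRNA 1 was higher and 5 lower, where 44.4% of all genes were called (2 and 3 with plain library totals). Limma called 0 of the 10 where the knockdown in LPS was set against that in vehicle (11.4% of all genes called). It also called 0 where Dex+LPS was set against LPS (3.97% of all genes called). At an unadjusted p under 0.05, 2 were higher and 1 lower in the first and 2 and 0 in the second. For these, edgeR called 0 in both and DESeq2 1 higher and 1 lower in the first and 0 in the second.

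Among 13 bZIP genes outside AP-1, of which some can pair with its members, the knockdown called 1 higher and 1 lower in vehicle, 4 and 3 in LPS and 2 and 1 in Dex+LPS, where 20.1%, 33.1% and 34.3% of all genes were called. Cebpa, a myeloid C/EBP factor, changed by -1.08 in LPS (SE 0.12, limma adjusted p = 2.42e-06) and -0.83 in Dex+LPS (SE 0.11, limma adjusted p = 7.83e-06). Ddit3, the stress factor CHOP, rose by 0.46 in vehicle and 0.73 in LPS, and Nfe2l2, the partner of small Maf proteins known as NRF2, by 0.65 in LPS. LPS with control siRNA raised 7 and lowered 5 of the 13 (73.0% of all genes called), with Cebpd (3.77) and Cebpb (3.50) rising most. The median was 0.89 against -0.04 over all genes tested.

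Of 23 tested genes of the MAP kinase cascade, which carries Toll-like receptor signals to AP-1, the knockdown called 3 higher and 2 lower in vehicle, 5 and 2 in LPS and 6 and 2 in Dex+LPS, against 20.1%, 33.1% and 34.3% of all genes called in either direction. With plain library totals these were 2 and 4, 4 and 4, and 5 and 4. In LPS, Mapk3 (ERK1) rose by 0.82 (SE 0.055, limma adjusted p = 4.43e-09), Mapk8 (JNK1) by 0.69 (SE 0.11, limma adjusted p = 0.000155), and Mapkapk2, the kinase downstream of p38, fell by 0.32 (SE 0.054, limma adjusted p = 0.000182). LPS with control siRNA raised 13 and lowered 4 (73.0% of all genes called), with Mapkapk2 (3.32) rising and Map2k6 (-4.09) falling most. Dex lowered 10 and raised 3 with control siRNA (48.7% of all genes called), where Mapk14 (p38 alpha) rose by 1.18. The direction of this group turned on the scale: with plain library totals LPS called 8 higher and 10 lower, and Dex 8 higher and 6 lower. These are transcript levels and do not measure kinase activity.

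The 11 factors known to act on the Fos and Jun promoters, all tested, were called higher in 2 cases in vehicle, 3 in LPS and 5 in Dex+LPS with Brg1 siRNA, where 9.39%, 17.3% and 19.0% of all genes were higher, and lower in 0 (at an unadjusted limma p under 0.05, 1, 0 and 0 were lower; edgeR called 0, 0 and 0 lower, DESeq2 0, 0 and 0). Mrtfa, a coactivator of serum response factor, rose by 0.54 in vehicle, 1.60 in LPS and 0.94 in Dex+LPS. Elk3, a ternary complex factor, rose by 1.26 in LPS (SE 0.13, limma adjusted p = 5.91e-07) and 1.07 in Dex+LPS (SE 0.11, limma adjusted p = 5.58e-07). The median over the 11 was -0.08 against 0.01 over all genes tested in LPS. With plain library totals 1 was higher and 0 lower in vehicle, 2 and 3 in LPS, and 4 and 1 in Dex+LPS.

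Of 19 textbook AP-1 target genes 18 were tested. With Brg1 siRNA, 3 were higher and 6 lower in vehicle, 5 and 9 in LPS, and 9 and 4 in Dex+LPS. The shares of all genes called were 20.1%, 33.1% and 34.3%. Over the 18 genes the medians were -0.17 against 0.01 over all genes tested, -0.26 against 0.01 and 0.28 against 0.01. Mmp9, a matrix metalloprotease, was lower in each treatment, with differences of -2.61, -2.19 and -2.67. In LPS its control libraries had 582, 472 and 571 normalized counts and its Brg1 siRNA libraries 115, 147 and 96.6, without overlap. Csf2, which encodes GM-CSF, moved the other way in LPS, from 655, 620.1 and 528 to 3314, 2842 and 3572, and rose by 2.43 (SE 0.23, limma adjusted p = 3.53e-07). Timp1, an inhibitor of metalloproteases, went from 106, 85.6 and 90.9 to 19.9, 17.4 and 15.9 in LPS and fell by 2.34 (SE 0.65, limma adjusted p = 0.00965), and Tnf rose by 0.92 (SE 0.056, limma adjusted p = 1.61e-09). LPS with control siRNA raised 14 and lowered 4 of the 18, and Dex with control siRNA lowered 16 and raised 1, with Csf2 (-6.30) and Mmp13 (-5.73) falling most and Hmox1 (0.19) rising. With plain library totals the counts were 13 and 4 for LPS and 2 higher and 14 lower for Dex. These counts stand against 73.0% and 48.7% of all genes called in either direction.

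Fos was set beside 15 other immediate early and handling-induced genes, a list that includes Hspa1a and Hspa1b. With Brg1 siRNA 1 was higher and 5 lower in vehicle, where 9.39% of all genes were higher and 10.8% lower. In LPS 6 were higher and 1 lower (all genes 17.3% and 15.8%), and in Dex+LPS 6 and 1 (all genes 19.0% and 15.3%). The median in LPS was 0.48 against 0.01 over all genes tested. Egr2, a zinc finger factor, was lower in vehicle (189.8, 205 and 195 against 527, 475 and 533, -1.37) and higher in LPS (1524, 1659.9 and 1565 against 648, 639.8 and 581, 1.34), and the knockdown effect differed by 2.72 between them (SE 0.14, limma adjusted p = 1.93e-09). Fos differed in the opposite direction, by -2.48. Myc was lower with Brg1 siRNA in vehicle (-1.92), LPS (-1.06) and Dex+LPS (-0.97). Of the 15, the knockdown effect differed between LPS and vehicle in 7 upwards and in 1, Ier3, downwards, against 11.4% of all genes called. Ier3 thus went in the same direction as Fos.

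In the authors' deposited table, all 56 tests of the 8 genes over the 7 group comparisons fell on the same side of an adjusted p of 0.05 and in the same direction as here where called.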

How the data were processed

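The deposited expression values are a signal, gene counts divided by a size factor for each library, as the values show: multiplied back, 99.95% came out as whole reads within 0.01. Per the submitters' processing notes, Salmon 1.4.0, DESeq2 and R 4.1.0 were used with mm10. Of the authors' deposited comparison table, the log2 fold changes and adjusted p-values were compared with the fits made here; its standard errors, held as a score, were deposited by the authors and not used.

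All 6 groups were fitted together with limma 3.58.1 (R 4.3.3, trend) on log2(normalized count + 1), for genes with at least 10 in at least 3 libraries, and p-values were adjusted over all 12061 genes with Benjamini-Hochberg. Contrasts were the knockdown in each treatment, the LPS and Dex responses with each siRNA, and the differences between knockdown effects. The pipeline was tested on simulated data. On the recovered reads, edgeR called 2503, 3868 and 4156 genes for the knockdown in vehicle, in LPS and in Dex+LPS, against 2430, 3995 and 4131 by limma. Alternatives were other pseudocounts, no filter, plain library totals, edgeR 4.0.16 and DESeq2 1.42.0 on recovered reads, fits of the compared groups only, the replicate number as a block, the library codes as a term or left out, and each library left out. The AP-1 genes and the lists of related genes were chosen with earlier results of these data known. The 9 genes and, per list and comparison, at most the 2 called genes with the largest rise and the 2 with the largest fall were named; genes most like a member are the 3 with the highest correlation. Upstream sequences are from RefSeq (GRCm38.p6). The protocol names a stranded mRNA kit and also rRNA depletion; the strand setting of counting is not given in the sources used here. Depth limits the lowest values (Fosb, and Maff in vehicle).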

Additional observations from a re-analysis of the deposited data

Results flagged for a closer look

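In the Dex+LPS groups, 3 values stood far from the other libraries of their group. The highest Junb value was 1745 normalized counts with control siRNA (replicate 4) and 3175 with Brg1 siRNA (replicate 4), and both libraries have higher codes. The highest Atf3 value with Brg1 siRNA was 1007 (replicate 3). In each case the gap to the nearest library, as a share of the range of the 4 libraries, exceeded the 95% critical value of Dixon's test. Chance exceeds that value in about 1 in 20 groups. Both Dex+LPS groups of the 8 tested genes were examined. Fosb was at 0 throughout these groups and could not be examined.

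The knockdown effect differed between LPS and vehicle for Fos (-2.48), Fosl2 (0.61) and Batf (-0.96), and between Dex+LPS and LPS for Fos (1.82), Atf3 (0.52) and Fosl2 (0.41), each by the interaction term of the limma fit on the log2 scale. The LPS libraries enter both kinds of difference with opposite sign, so these are not independent. Between Dex+LPS and LPS, the Fosl2 difference lost its call in 13 of 24 alternatives and the Atf3 difference in 2 of 24.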

How the results depend on the processing

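Of 1296 values under alternatives, 1229 kept their direction and side of the threshold, 28 lost a call, 13 gained one and 26 changed sign. Counts that moved by more than 1.5 times were as follows. AP-1 genes called for the knockdown in LPS were 2 with plain library totals and 2 with the compared groups only, against 1. AP-1 genes called for the difference between Dex+LPS and LPS were 1 with the compared groups only and 1 without the higher library codes, against 3. All genes called for that difference were 731 by DESeq2, 319 with the compared groups only, 730 with a term for the codes and 299 without the higher codes, against 479.

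Signs changed with plain library totals for Jun (knockdown in LPS, -0.0527), Fosl2 (Dex response with control siRNA, 0.0376) and Jund (difference between LPS and vehicle, -0.10, also -0.0283 with edgeR and -0.0209 with DESeq2), and without the higher codes for Jund (knockdown in LPS, 0.0451). Leaving out 1 library, the knockdown value of Jund ran from -0.13 to 0.0708 in vehicle and -0.27 to 0.28 in LPS. In LPS it ran from -0.0719 to 0.27 for Jun, -0.0707 to 0.48 for Junb and -0.0649 to 0.0157 for Atf3, and in Dex+LPS from -0.13 to 0.0502 for Maff. The difference between LPS and vehicle ran from -0.0327 to 0.31 for Jun and -0.23 to 0.32 for Jund, and that between Dex+LPS and LPS from -0.55 to 0.0031 for Jund. Of these, only the Fosl2 difference was called in the main fit (-0.26, limma adjusted p = 0.00956), and it was not called with plain library totals. The other values were not called in the main fit or in the fits named here. The cause was not tested.

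Replicate numbers showed no general pairing of the libraries. This was judged from deviations of log2 values from each gene's group mean, not from the levels themselves. Deviations of same-numbered libraries correlated -0.166 to 0.406. The value of 0.406 belongs to the replicate 4 libraries of Dex+LPS, which both have higher codes, and the next highest was 0.0787. With the replicate number as a block, the knockdown called 3 AP-1 genes in vehicle, 1 in LPS and 4 in Dex+LPS, with 8 and 8 for LPS, 6 and 6 for Dex and 3 and 3 for the differences. Of all 12061 genes tested, the block fit called 2646, 4222 and 4347 for these knockdowns. It called 8932 and 8899 for LPS, 6068 and 5531 for Dex, and 1540 and 570 for the differences. The block ended the call of Fos in the Dex response with control siRNA (-0.45, adjusted p = 0.0525) and gave one for Junb in Dex+LPS (0.71, adjusted p = 0.0211). In the same deviations from group means, the 4 higher-code libraries correlated 0.207 to 0.406 with one another.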
